A study of Mus musculus with 12 samples.

Results

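The 9 genes described here are Ptch1, Smo, Gli1, Gli2, Gli3, Hhip, Boc, Cdon and Gas1, which encode receptors, co-receptors, a decoy receptor and transcription factors of Hedgehog signalling. They were taken by gene symbol from a table of 56941 genes, where each symbol had 1 row. RNA was sequenced from astrocytes of the hippocampus of adult naive male mice, sorted by FACS on ACSA-2, an astrocyte surface antigen encoded by Atp1b2. The animals labelled Ctrl carried the genotype Tnfrsf1bfl/fl, in which the gene for the TNF receptor TNFR2 is flanked by loxP sites and intact. Those labelled cKO carried GfapcreERT2:Tnfrsf1bfl/fl, which adds a drug-inducible Cre recombinase driven by the Gfap promoter, so both groups share the floxed gene and the Cre is in cKO alone. Induction dose and timing are not given in the sources used here. There were 12 libraries, an S1 and an S2 for each of A1, A2 and A8 (Ctrl) and A4, A9 and A10 (cKO). The labels define neither letter, so the S1 and S2 values sharing an A number were merged into 1 unit by their mean. This gave 3 units per genotype, and p-values measure only the spread between these units. The fits that took the A number as random are the exception, as they used all 12 libraries.

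Hedgehog ligands are secreted proteins that bind Ptch1 on a receiving cell. Without ligand, Ptch1 keeps the membrane protein Smo inactive, and Gli proteins, above all Gli3, are processed into repressors at the primary cilium; with ligand, Smo is released and Gli2 and Gli3 act as activators. Gli1, Ptch1 and Hhip are themselves transcribed in response, and Boc, Cdon and Gas1 are co-receptors that help ligand to bind Ptch1. In the adult forebrain, Gli1 is known to mark a subset of astrocytes and neural stem cells that receive Sonic hedgehog made by neurons.

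Recovered depth was 17311872 to 35323322 reads per library. Tnfrsf1b, the ablated gene, was listed at 0 in 9 of the 12 libraries, including 5 of the 6 Ctrl libraries. It could therefore not check the labels. A listed 0 allows up to 0.0249 to 0.0454 FPKM (3 reads, counting error only). That limit takes reads as independent and is too low where both mates of a pair were counted. Tnfrsf1b had 4 reads in Ctrl A1 S1 and 10 and 22 reads in the A4 libraries, where the label is cKO. A4 also had the highest microglial marker sum (36.5 FPKM, against 14.2 to 25.4 FPKM in the other units), with C1qa at 2.05 FPKM and Cx3cr1 at 1.28 FPKM. Aif1 of the same list went the other way, at 0.148 FPKM in A4 against 0.619 FPKM in A1 and 0.456 FPKM in A9. Microglia are known to express Tnfrsf1b and the Gfap promoter does not target them. The endothelial marker sum was also high in A4 (45.1 FPKM), as in A1 and A2 (60.8 and 40.6 FPKM), against 5.25 to 7.42 FPKM in the other units. The part of either cell type in the Tnfrsf1b reads was not tested, and Hhip, Cdon and Boc are also given without A4. Ctrl and cKO are therefore used as the names of the labels. Unit A8 had the lowest oligodendrocyte and immediate-early sums of the Ctrl units (1096 and 233 FPKM), and values without it are given where they differ from the main value by over 1.5 times and for Hhip, Cdon and Boc. All 16 astrocyte markers exceeded 1 FPKM on average (fragments per kilobase of gene length and 1000000 counted fragments), with Slc1a2 the most abundant. The summed level of the 12 oligodendrocyte markers, all above 1 FPKM and none at 0, was 1096 to 2354 FPKM in the Ctrl units and 313 to 753 FPKM in the cKO units, without overlap. Of 8 neuronal markers, 2 exceeded 1 FPKM, and the list summed to 3.28 to 10.02 FPKM.

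Upstream sequence is shown for Hhip and Smo, the members with the largest and the smallest difference between genotypes on the log2(FPKM + 1) scale. Both runs hold the 250 bases before the start site in RefSeq on GRCm38.p6, 5′ to 3′ on the gene's strand, at chr8:80058009-80058258 (minus strand) for Hhip and chr6:29735247-29735496 (plus strand) for Smo. Capitals mark matches to the GC box GGGCGG, on either strand.
Hhip: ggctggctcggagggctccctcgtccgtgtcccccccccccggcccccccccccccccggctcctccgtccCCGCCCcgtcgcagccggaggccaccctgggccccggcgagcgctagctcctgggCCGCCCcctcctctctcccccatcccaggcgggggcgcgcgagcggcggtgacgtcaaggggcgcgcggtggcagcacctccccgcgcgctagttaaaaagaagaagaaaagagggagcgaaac
Smo: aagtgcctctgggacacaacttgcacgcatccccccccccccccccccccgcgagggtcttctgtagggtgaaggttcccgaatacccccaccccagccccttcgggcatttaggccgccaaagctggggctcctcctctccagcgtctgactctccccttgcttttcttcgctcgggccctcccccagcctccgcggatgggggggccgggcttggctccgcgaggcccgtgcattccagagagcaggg

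Such windows were at hand for 7 of the 9 genes. The Gli consensus GACCACCCA, searched on both strands, was in 0 of the 7 windows and in 0.225% of all 32851 windows of that length. The GC box was in 5 of the 7 and in 32.7% of all windows, with 2 matches for Hhip. The Cdon and Ptch1 windows lie 30948 and 7863 bases inside the gene as GENCODE M21 draws it, and the Gas1 start site was not found in a GENCODE M21 transcript, so these 3 windows may not sit at the main start. The Hhip window was 76.0% G and C with 28 CpG dinucleotides, and the Smo window 68.4% with 15, where the median over all windows was 52.4% and 6. These are matches of letters in 1 window per gene and say nothing of binding.

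All 9 genes were above the filter for testing, a mean of 1 FPKM over the 12 libraries, as were 17540 genes in all. Levels, over the 6 units, ran from 32.0 ± 3.75 FPKM (SD, n = 6) for Ptch1 to 1.60 ± 1.22 FPKM for Cdon. Ptch1 stood above 94.9% of the tested genes and Cdon above 14.8%. Between them lay Gli3 at 25.6 ± 2.69 FPKM, Gas1 at 21.3 ± 4.92 FPKM and Boc at 16.2 ± 2.39 FPKM. Gli2 followed at 13.7 ± 1.70 FPKM, Smo at 12.1 ± 1.12 FPKM, Gli1 at 6.92 ± 2.10 FPKM and Hhip at 5.75 ± 2.73 FPKM (SD, n = 6 each). Of the 8 neighbouring pairs in this order, only Smo and Gli1 had ranges that did not overlap. The order nevertheless held within all 6 units for Ptch1 over Gli3, Gli3 over Gas1, Gas1 over Boc, Smo over Gli1 and Hhip over Cdon. It held in 5 units for Boc over Gli2 and for Gli2 over Smo, and in 4 for Gli1 over Hhip, 3 of them cKO.

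**Figure D1:**
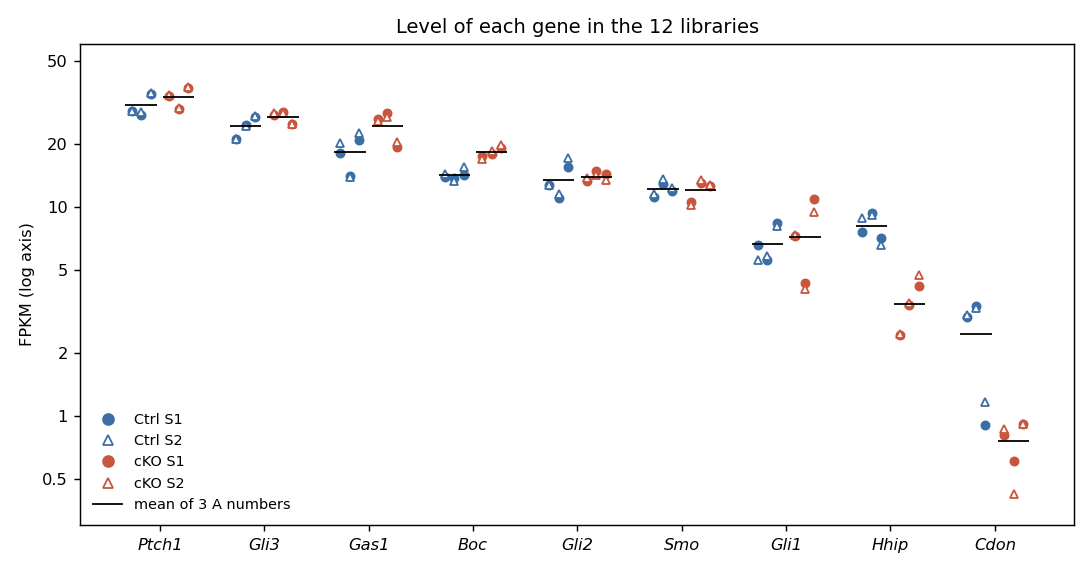
FPKM of each gene on a log axis, in order of mean level; filled circles are S1 and open triangles S2 libraries, blue for Ctrl and red for cKO, side by side by A number, and the bar is the mean of 3 A numbers. The Ctrl and cKO points are apart for Hhip (6.54 to 9.34 against 2.42 to 4.73 FPKM) and Boc (13.3 to 15.5 against 16.9 to 19.7 FPKM), and the 3 cKO units of Gli1 spread from 4.17 to 10.1 FPKM.

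The comparison of cKO with Ctrl asks whether these transcripts differed after ablation of TNFR2 in astrocytes. The Ctrl and cKO means were 8.07 and 3.44 FPKM for Hhip, 2.45 and 0.753 for Cdon, and 14.1 and 18.2 for Boc, and the 3 units of each genotype did not overlap in these 3 genes. None of the 9 passed: 0 of 9 had an adjusted p under 0.05 (limma, Benjamini-Hochberg over 17540 genes), as did 0 of the 17540 (0%). At an unadjusted p under 0.05, 2 of the 9 were lower in cKO (Hhip and Cdon), where 4.71% of all genes were, and 1 was higher (Boc), where 2.98% were. All 3 cKO units lay below all 3 Ctrl units in 2 of the 9 and in 7.22% of all genes, and above them in 1 of the 9 and in 5.76%. In a fit of all 12 libraries that took the A number as random, 0 of the 9 passed and 0.639% of all genes did. That fit used S1 and S2 as separate libraries with 1 correlation for all genes (0.915), so its p-values may be too small. The median log2 difference of the 9 genes was 0.07 and that of all tested genes -0.01.

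**Figure D2:**
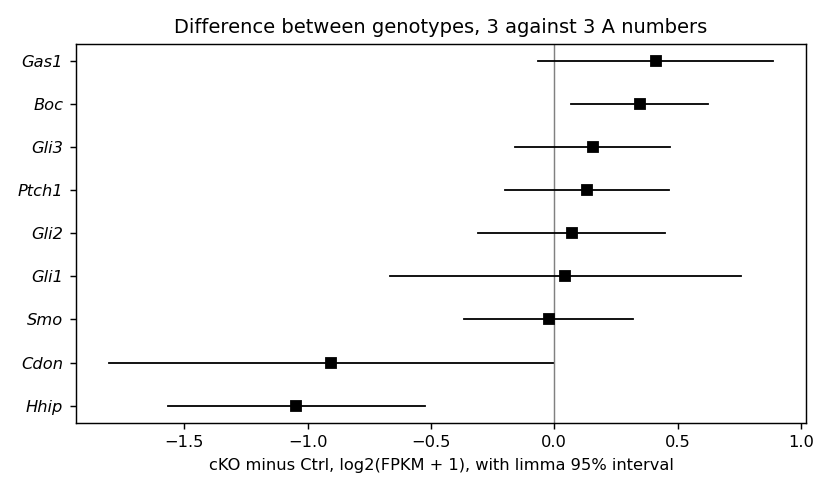
Difference between genotypes (cKO minus Ctrl, log2(FPKM + 1)) for each gene, from limma on 3 against 3 A numbers; squares are estimates and lines 95% intervals. The intervals of Hhip (-1.57 to -0.53), Cdon (-1.81 to -0.01) and Boc (0.07 to 0.63) do not cross 0 before adjustment, and the other 6 do.

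Ptch1 (ENSMUSG00000021466, chromosome 13, start 63656142, end 63721412, minus strand), the ligand receptor, was at 28.7, 27.9 and 34.8 FPKM in Ctrl A1, A2 and A8 and at 34.0, 29.5 and 37.0 FPKM in cKO A4, A9 and A10. A10 and A8 were the highest units, so the groups overlapped. The log2 difference was 0.13 (SE 0.14, limma adjusted p = 0.901), and it was 0.23 without A8. Smo (ENSMUSG00000001761, chromosome 6, start 29735502, end 29761364, plus strand), the membrane protein that Ptch1 inhibits, was at 11.3, 13.2 and 12.1 FPKM in the same Ctrl units and at 10.3, 13.1 and 12.6 FPKM in the cKO units. The means of 12.2 and 12.03 FPKM were the closest of any member, and the 95% interval of the log2 difference was -0.36 to 0.32 (limma adjusted p = 0.990). Ptch1 exceeded Smo in every unit, by 2.12 to 2.88 times in Ctrl and 2.25 to 3.29 times in cKO.

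Gli1 (ENSMUSG00000025407, chromosome 10, start 127165751, end 127177843, minus strand), the activator that is itself a pathway target, was at 6.05, 5.67 and 8.21 FPKM in Ctrl A1, A2 and A8. In cKO A4, A9 and A10 it was at 7.26, 4.17 and 10.1 FPKM. The cKO units held both the lowest and the highest value, and the range over units was 2.44-fold. The log2 difference of 0.05 had a 95% interval of -0.67 to 0.76 (limma adjusted p = 0.990), and it was 0.19 without A8 and -0.21 without A10. Gli1 shared the order of its highest 3 units, A10, A8 and A4, with Ptch1. An antisense long noncoding RNA, Gm47200 (2.92 FPKM on average), shares 265 exonic bases with Gli1, or 5.31% of its length; the library kit does not mark strand, so reads there cannot be told apart.

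Gli2 (ENSMUSG00000048402, chromosome 1, start 118761862, end 118981349, minus strand), the main activator upon ligand, was at 12.6, 11.2 and 16.3 FPKM in Ctrl and at 13.4, 14.5 and 13.9 FPKM in cKO. The cKO units lay within the Ctrl range, and the log2 difference was 0.07 (SE 0.16, limma adjusted p = 0.967; 0.21 without A8). Gli3 (ENSMUSG00000021318, chromosome 13, start 15637820, end 15904611, plus strand), the main source of repressor, was at 21.1, 24.4 and 27.0 FPKM in Ctrl and at 27.9, 28.3 and 24.8 FPKM in cKO. A10 was within the Ctrl range, and the log2 difference was 0.16 (SE 0.13, limma adjusted p = 0.872; 0.24 without A8). Gli3 made up 54.9 ± 3.68% of the summed Gli FPKM in Ctrl against 56.1 ± 4.88% for cKO (SD, n = 3 each). Gli1 made up 14.96 ± 1.13% in Ctrl and 14.9 ± 5.96% in cKO, with 8.87% in A9 and 20.8% in A10.

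**Figure D3:**
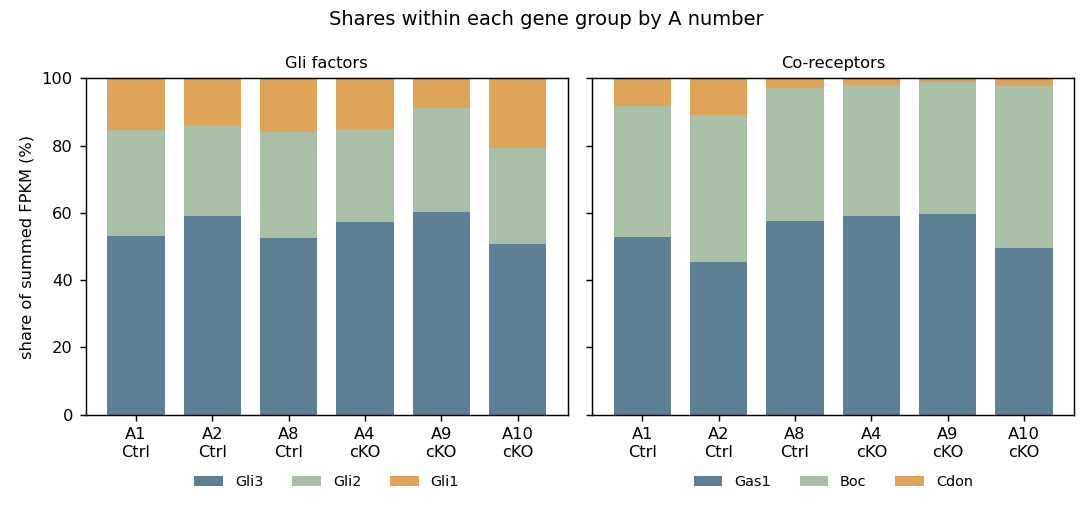
Share of each gene in the summed FPKM of the 3 Gli factors (left) and of the 3 co-receptors (right), by A number. Gli3 is the largest part of the Gli sum in every unit (50.8% to 60.3%), and Cdon takes 8.25% and 10.8% of the co-receptor sum in Ctrl A1 and A2 against 1.12% to 2.75% in the other 4 units.

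Hhip (ENSMUSG00000064325, chromosome 8, start 80692480, end 80784635, minus strand), a membrane protein that binds Hedgehog ligands and is induced by the pathway, had the largest difference of the 9 on the log2(FPKM + 1) scale. By the ratio of means Cdon had the larger one (3.25 against 2.35), as it did with a pseudocount of 0.1 (-1.46 against -1.24 on the log2 scale) and without A8. The S1 and S2 levels of Hhip were 7.56 and 8.80 FPKM in A1, 9.34 and 9.14 in A2, and 7.06 and 6.54 in A8, all Ctrl. In cKO they were 2.42 and 2.47 FPKM in A4, 3.39 and 3.46 in A9, and 4.15 and 4.73 in A10. Every cKO library was below every Ctrl library, and each rested on at least 484.5 reads. The Ctrl mean of 8.07 ± 1.22 FPKM was 2.35 times the cKO mean of 3.44 ± 0.997 FPKM (SD, n = 3 each). The log2 difference was -1.05 (SE 0.22, unadjusted p = 0.00215, limma adjusted p = 0.333), and it was -0.88 without A4 and -1.15 without A8. Taking the A number as random on all libraries, the limma adjusted p was 0.0539, in the fit whose p-values may be too small. The 20 alternatives gave a log2 difference of -1.24 to -0.32 with an adjusted p of 0.0539 to 0.874.

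The Hhip units followed the oligodendrocyte markers: both were highest in A2, then A1, A8, A10, A9 and A4. In bulk RNA, fewer cells of a type and less RNA per cell cannot be told apart. Of the 12 oligodendrocyte markers, 11 were lower in all 3 cKO units than in all 3 Ctrl units, and their median log2 difference was -1.75. When a score of these genes (mean log2 level of the 12 markers) entered the model as a covariate, Hhip differed by -0.32 (SE 0.32, limma adjusted p = 0.874). That score was 5.57 to 6.63 in Ctrl and 3.90 to 5.20 in cKO, so it also separated the genotypes. Over 6 units, its part and that of genotype cannot be told apart in this fit. The 6 genes listed for oligodendrocyte precursors summed to 127 to 167 FPKM in Ctrl and 77.5 to 106 FPKM in cKO and ranked the units in the same order. By mean level, Olig1 (69.5 FPKM), Olig2 (29.0 FPKM) and Sox10 (17.0 FPKM) led that sum. Pdgfra, Cspg4 and Gpr17 averaged 0.690, 1.98 and 1.06 FPKM. These 3 and Olig2 overlapped between the genotypes, while Olig1 and Sox10 were lower in cKO. The 8 microglial markers summed to 14.2 to 19.1 FPKM in Ctrl and 20.7 to 36.5 FPKM in cKO and ranked the units in the reverse order. The part of both lists in the result was not tested. The ependymal markers summed to 70.1 to 279 FPKM in Ctrl and 59.99 to 176 FPKM in cKO, the endothelial markers to 5.25 to 60.8 FPKM and 6.11 to 45.1 FPKM, and the mural markers to 67.9 to 113 FPKM and 94.3 to 144 FPKM; each of these ranges overlapped. The fibroblast markers summed to 6.53 to 8.68 FPKM in Ctrl and 5.37 to 16.2 FPKM in cKO, and the part of these 4 lists was not tested either. Gm54713, on the opposite strand (3.76 FPKM on average), shares 175 bases with Hhip, or 1.93% of its length.

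**Figure D4:**
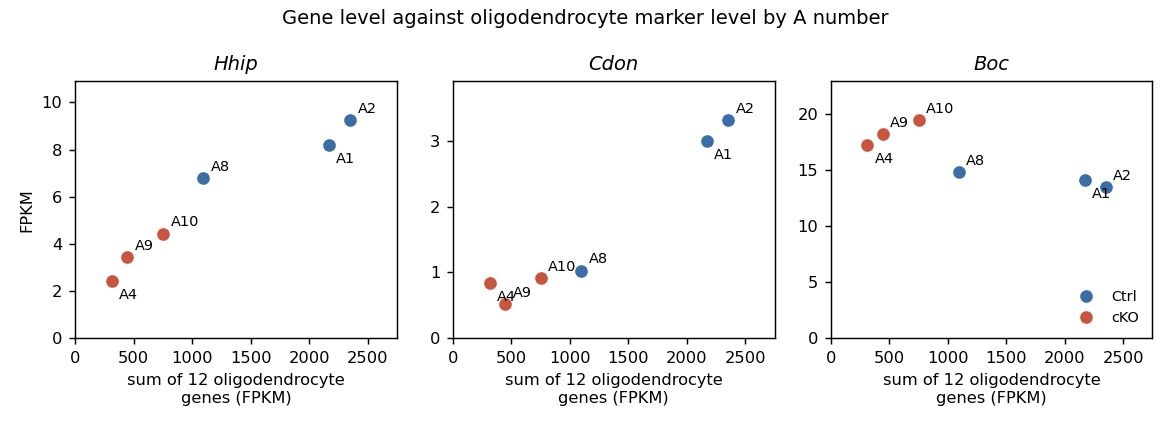
FPKM of Hhip, Cdon and Boc in each unit against the summed FPKM of the 12 oligodendrocyte markers; blue points are Ctrl and red points cKO, and each is the mean of S1 and S2. Hhip is in the same order as the markers in all 6 units, Cdon is high in A1 and A2 (2.99 and 3.31 FPKM) and at most 1.03 FPKM in the other 4, and Boc is 17.2 to 19.4 FPKM in the 3 units with the lowest marker sums.

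Among the co-receptors, Cdon (ENSMUSG00000038119, chromosome 9, start 35332424, end 35418948, plus strand), an immunoglobulin superfamily protein, had the lowest level and, on the log2(FPKM + 1) scale, the widest spread. Its S1 and S2 levels were 2.95 and 3.04 FPKM in A1, 3.35 and 3.27 in A2, and 0.899 and 1.16 in A8 (Ctrl). In cKO they were 0.812 and 0.859 FPKM in A4, 0.609 and 0.423 in A9, and 0.908 and 0.909 in A10. Ctrl A1 and A2 stood above the other 4 units, and the A8 S1 library was below both A10 libraries. The log2 difference was -0.91 (SE 0.38, unadjusted p = 0.0487, limma adjusted p = 0.644). Without A8 it was -1.25 (limma adjusted p = 0.156), without A4 -0.94, and with the marker score as a covariate -0.02 (SE 0.70). The unadjusted p was 0.0738 to 0.136 when any of A1, A2, A4, A9 or A10 was left out, and the 20 alternatives gave an adjusted p of 0.156 to 1. Cdon followed the oligodendrocyte sum in its highest 4 units (A2, A1, A8 and A10). A1 and A2 were also the highest units for the ependymal sum (279 and 242 FPKM) and for the 10 immediate-early genes (860 and 990 FPKM, against 176 to 436 FPKM elsewhere), whose part was not tested.

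Boc (ENSMUSG00000022687, chromosome 16, start 44305412, end 44379260, minus strand), a co-receptor of the same family as Cdon, was higher in cKO. In Ctrl its S1 and S2 levels were 13.9 and 14.3 FPKM in A1, 13.7 and 13.3 in A2, and 14.2 and 15.5 in A8. In cKO they were 17.4 and 16.9 FPKM in A4, 17.8 and 18.5 in A9, and 19.1 and 19.7 in A10. The lowest cKO library (A4 S2) exceeded the highest Ctrl library (A8 S2). The cKO mean of 18.2 ± 1.11 FPKM was 1.29 times the Ctrl mean of 14.1 ± 0.665 FPKM (SD, n = 3 each). The log2 difference was 0.35 (SE 0.12, unadjusted p = 0.0222, limma adjusted p = 0.550). It was 0.39 without A4, 0.38 without A8 and 0.39 (SE 0.25) with the marker score as a covariate. Without A10 it was 0.30 (unadjusted p = 0.0702, limma adjusted p = 0.827), and the 20 alternatives gave an adjusted p of 0.247 to 1. The 16 astrocyte markers summed to 4868 to 6061 FPKM in Ctrl and 5905 to 6731 FPKM in cKO. With each library scaled to that sum, an alternative chosen after the data were seen, the log2 difference of Boc was 0.16 (SE 0.15, limma adjusted p = 0.807), where the median of all genes was -0.17.

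Gas1 (ENSMUSG00000052957, chromosome 13, start 60322219, end 60325179, minus strand), a co-receptor anchored to the membrane by a lipid, was at 19.2, 13.9 and 21.6 FPKM in Ctrl A1, A2 and A8. In cKO A4, A9 and A10 it was at 25.9, 27.5 and 19.9 FPKM. A4 and A9 exceeded every Ctrl unit and A10 did not. The log2 difference was 0.41 (SE 0.20, limma adjusted p = 0.718), and with the marker score as a covariate it was -0.22. It depended on the units kept: it was 0.54 without A8 and 0.55 without A10 (unadjusted p = 0.0398 and 0.0420, limma adjusted p = 0.337 and 0.758), but 0.24 without A2, 0.32 without A9 and 0.36 without A4 (unadjusted p = 0.227, 0.217 and 0.189). The antisense long noncoding RNA Gm48488 shares 589 bases with Gas1, or 19.9% of its length, at 1.10 FPKM on average. Summed over Boc, Cdon and Gas1, the Ctrl level was 34.8 ± 3.60 FPKM and the cKO level 43.4 ± 3.03 FPKM (SD, n = 3 each). The ratio of Boc to Cdon was 4.07 to 14.4 in Ctrl and 20.6 to 35.2 in cKO. Boc and Cdon each separated the units by genotype, in opposite directions, so their ratio adds no further result.

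Hhip and Cdon, each centred on its own mean, differed from each other by 0.27 on the log2 scale on average over the 6 units, and from each of the other 7 genes by 0.51 to 0.75. The closest pair was Boc and Ptch1, at 0.11. This measure is small for any pair of genes that vary little between units. The genotypes overlapped in Ptch1 and did not in Boc. S1 and S2 of an A number differed by at most 0.21 on the log2(FPKM + 1) scale for any member, in Gli1, and by at most 0.04 for Ptch1. On that scale the standard deviation between units was 0.62 for Hhip and 0.63 for Cdon, and 0.13 for Smo, the lowest of the 9.

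By the same measure, the closest gene to each member among all tested was named, as a description over 6 units that share the marker differences above. For Hhip it was Cpox, a heme synthesis enzyme, with a mean difference of 0.06 and levels of 6.45 to 8.78 FPKM in Ctrl and 2.33 to 4.84 FPKM in cKO. For Cdon it was Dbndd2 (mean difference 0.07), at 12.7 and 14.3 FPKM in A1 and A2 and 4.77 to 5.83 FPKM in the other 4 units. For Boc it was Ctns, the lysosomal cystine transporter (0.03), and for Gli1 it was Marchf3, a ubiquitin ligase (0.04). The closest genes were Senp2 for Ptch1, Slc30a9 for Smo, Arl6ip5 for Gli2, Ube3c for Gli3 and Appl2 for Gas1.

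The ligands were near or at 0 in these libraries. Shh was listed at 0 in every unit but A8 (0.268 FPKM), Ihh in every unit but A1 and A10 (0.180 and 0.398 FPKM), and Dhh was highest in A2 (0.530 FPKM). Of the 9 genes for ligands and their acylation, release and carriage, 2 reached the filter and 0 had an unadjusted p under 0.05. Disp1, which releases lipid-bearing ligand from the cell, was at 2.16 to 3.15 FPKM in Ctrl and 3.07 to 5.22 FPKM in cKO (log2 difference 0.52, SE 0.23, limma adjusted p = 0.676). Scube3, a secreted protein related to a ligand carrier, differed by 0.05 (SE 0.42), and by -0.37 without A8.

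Downstream of the receptor, 18 of 20 genes were tested, 0 passed after adjustment, and 1 was higher at an unadjusted p under 0.05, where 2.98% of all tested genes were. That gene was Prkaca, the catalytic subunit of protein kinase A, which phosphorylates Gli proteins and favours their repressor form. It was at 14.9, 18.004 and 15.5 FPKM in Ctrl and at 20.9, 20.7 and 23.3 FPKM in cKO, without overlap (log2 difference 0.41, SE 0.13, limma adjusted p = 0.4996). With astrocyte marker scaling, which put the median of all genes at -0.17, it was 0.22 (limma unadjusted p = 0.243). Evc, a cilium protein that binds Smo, was at 2.23 to 2.73 FPKM in Ctrl and 3.03 to 3.73 FPKM in cKO (log2 difference 0.36, limma adjusted p = 0.741). Sufu, the inhibitor that holds Gli proteins in the cytoplasm, averaged 4.08 ± 0.821 and 3.56 ± 0.0755 FPKM (SD, n = 3 each; limma adjusted p = 0.929). The median log2 difference of the list was 0.05.

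Of 15 genes described as Gli targets in other cells, the 9 members left out, 6 were tested, 0 passed after adjustment and 1 was lower at an unadjusted p under 0.05, where 4.71% of all tested genes were. It was Nkx2-2, a homeodomain factor that is also a factor of the oligodendrocyte lineage, at 4.89, 5.32 and 8.32 FPKM in Ctrl and 3.09, 3.67 and 3.76 FPKM in cKO (log2 difference -0.65, SE 0.22, limma adjusted p = 0.550; -0.44 without A8). The cyclin Ccnd2 was at 11.006 ± 3.01 FPKM in Ctrl against 7.85 ± 1.06 FPKM for cKO (SD, n = 3 each; limma adjusted p = 0.763). Its log2 difference was -0.41, and -0.64 without A8 (limma adjusted p = 0.186). Bcl2 and Hes1 differed by 0.02 and 0.04 on the log2 scale. The median of the list was -0.20.

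For the primary cilium, where Smo and the Gli proteins are handled, 20 genes were listed, all tested. Their sum was lowest in A9 and A8 (109 and 118 FPKM) and highest in A1 (172 FPKM). The ependymal marker sum was lowest and highest in the same units (59.99, 70.1 and 279 FPKM). The part of ependymal cells in the cilium list was not tested, so its values may not be those of astrocyte cilia alone. In the cilium list 0 passed after adjustment, 1 was lower at an unadjusted p under 0.05, where 4.71% of all tested genes were, and the median was -0.08. Ift52, a subunit of the intraflagellar transport complex, was at 8.22 to 8.57 FPKM in Ctrl and 5.66 to 6.97 FPKM in cKO (log2 difference -0.38, SE 0.14, limma adjusted p = 0.607). Its unadjusted p was under 0.05 in 11 of the 20 alternatives. Upper quartile scaling, which put the median of all genes at 0.13, gave -0.22 (limma unadjusted p = 0.219). Tulp3, which carries receptors into the cilium, differed by 0.23 (SE 0.16, limma adjusted p = 0.840).

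**Figure D5:**
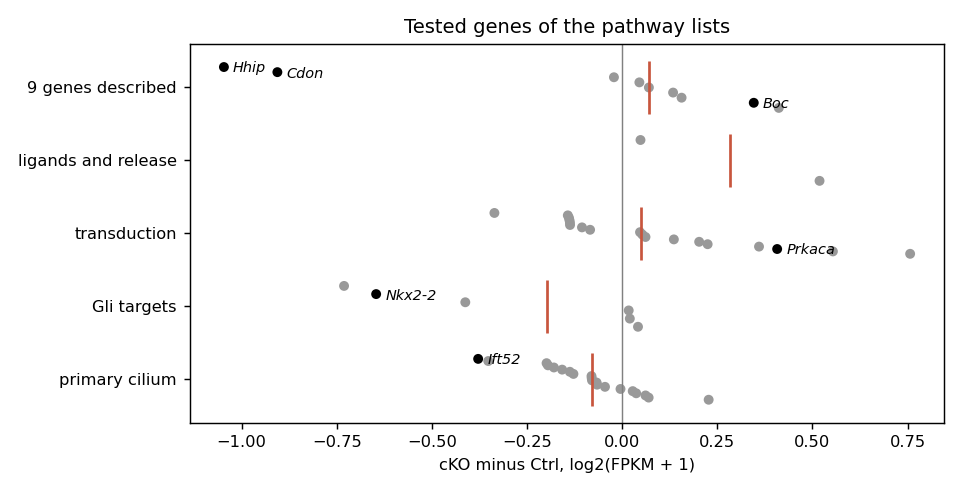
Difference between genotypes (cKO minus Ctrl, log2(FPKM + 1)) of the tested genes of each list; each point is a gene, spread vertically for legibility, black and named where the unadjusted p is under 0.05, and red bars are list medians. Apart from Hhip, Cdon and Boc, 1 gene each of the transduction, target and cilium lists is black, and 0 of the 2 ligand genes.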

How the data were processed

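Per the labels' protocols, sorted cells went through the SMART-Seq V4 kit for cDNA and libraries, which were read on an Illumina HiSeq as pairs of 125 bases. The submitters' processing notes name FastQC, STAR, featureCounts and DESeq2 with mm10 and GRCm38, without role or version. The authors deposited FPKM values per gene and library, with each gene's exonic length in bases; FPKM times length in kilobases summed to 1000000 in every library. Coordinates are as deposited: 0 of the 9 genes, and 2.77% of 51948 genes, had the same start and end in GENCODE M21 on GRCm38. The 5′ end of Hhip is at 80784635 as deposited and at 80058006 in GENCODE M21, while that of Smo is at 29735502 and 29735503. The build of the deposited coordinates is not established, so they should not be read against the GRCm38.p6 windows. Rows sharing a symbol were summed (147 symbols).

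The FPKM steps of low genes gave the reads of each library; 83.4% to 87.5% of genes above 0 came out whole (within 0.01 reads, or 0.01% of larger values). S1 libraries had 17311872 to 22025823 reads and S2 libraries 28096485 to 35323322. Of the low recovered counts, 72.6% to 80.4% were even, as they would be where both mates of a pair are counted. No molecular identifiers were used, so reads are not independent molecules.

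log2(FPKM + 1), which understates the change of low genes, was averaged over S1 and S2, whose Pearson r across genes was 0.980 to 0.984 (0.788 to 0.896 between A numbers). Genes whose mean over the libraries reached 1 FPKM were compared between genotypes with limma 3.58.1 in R 4.3.3 (eBayes with a variance trend, two-sided) and Benjamini-Hochberg adjustment over all 17540, with a threshold of 0.05; the script was tested on simulated data. The alternatives were another pseudocount (0.1), other filters and scalings, eBayes settings, omission of each A number, either S set by itself, random effects for the A number, and a covariate. The members, lists and rule for named genes were chosen with earlier results of these data known. The rule names all 9 members, Tnfrsf1b, the 2 genes with the smallest p in each pathway list and the closest gene to each member. Sufu, Bcl2, Hes1, C1qa, Cx3cr1, Aif1, the oligodendrocyte precursor genes, the ligands and the overlapping genes were named after their values were seen. Upstream windows and start sites are from RefSeq on GRCm38.p6.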

Additional observations from a re-analysis of the deposited data

How the results depend on the processing

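The 0 genes past the threshold became 112 with the A number taken as random, and 80 with the replicate block added to that model. Those fits used S1 and S2 as separate libraries, so their p-values may be too small and these counts too high. The count ran from 0 to 1 when each A number was left out. Of the 9 members, 0 passed in any of the 20 alternatives. Replicate numbers stand for the S sets only, so no pairing of the genotypes follows from them: same-numbered libraries of the 2 genotypes had deviations correlated at -0.069 to 0.142 across genes. The 3 members at an unadjusted p under 0.05 became 0 with the oligodendrocyte score as a covariate. There Hhip was at -0.32 and Cdon at -0.02, while Boc was at 0.39 with its SE at 0.25 against 0.12. The score did not overlap between the genotypes, so its part and that of genotype cannot be told apart in this fit. Of 180 member values under the alternatives, 164 kept their direction; 16, in 6 members, did not, and Hhip, Cdon and Boc kept theirs in all 20. With that covariate Gas1 was at -0.22, Gli2 at -0.24, Gli3 at -0.15, Smo at 0.16 and Ccnd2 at 0.024. With astrocyte marker scaling, which put the median of all genes at -0.17, Gli1 was at -0.12, Gli2 at -0.11, Gli3 at -0.035, Ptch1 at -0.058 and Scube3 at -0.10. Smo was at 0.14 with upper quartile scaling, which put the median at 0.13, and at 0.015 with TMM scaling. Leaving out each A number gave -0.21 to 0.34 for Gli1, -0.039 to 0.21 for Gli2, -0.084 to 0.075 for Smo and -0.37 to 0.41 for Scube3. The cause of these shifts was not tested.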
